A study of Schizosaccharomyces pombe with 17 samples.

Results

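Libraries labelled rrp6Δ were compared with libraries of dis3-4 after 1 h at 30 °C, groups that their labels tie to different exonucleases of the nuclear RNA exosome. The comparison takes 4 of the 17 samples of the series, 2 libraries a group, and 4 of its 14 libraries of polyA-selected RNA from fission yeast, Schizosaccharomyces pombe. The rrp6Δ label belongs to strain JLP1704, grown at 32 °C in rich YES medium and harvested in mid-log phase. The dis3-4 mutant, strain JT449, is temperature-sensitive; it was kept in the same medium at 23 °C until mid-log phase, and 1 set was then held at 30 °C for 1 h. The other polyA libraries were rrp6-cat (JLP1708, 32 °C), dis3-4 at 23 °C and wild type (CHP1365, 32 °C). The double mutant rrp6-cat dis3-4 (JLP1863, 30 °C and 23 °C) was also among them. These libraries entered the filter and the shared spread behind the p-values of the comparison. Their values are given beside it, and some of these groups are compared in their own right below. Each genotype is a single named strain of unstated parentage, and the compared groups differ in strain and temperature as well as in genotype. The contributions of genotype, strain and temperature cannot be told apart in this comparison. The labels do not say whether the libraries of a group are separate cultures; p-values below cover only the spread between these libraries.

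The exosome is a ring of subunits that threads RNA to exonucleases and degrades or trims it from the 3′ end. Dis3 is its essential catalytic subunit, and Rrp6 is a further exonuclease of the nuclear complex, which in fission yeast can be deleted. In growing fission yeast cells the RNA-binding protein Mmi1 recognises meiotic mRNAs through the hexamer UUAAAC and hands them to the nuclear exosome, and rrp6 mutants are known for accumulating such mRNAs. Both nucleases also act on snoRNA precursors and on noncoding transcripts.

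The targeted genes themselves were measured in each library before any other gene. The rrp6 gene (SPAC1F3.01, chromosome I) had 179 and 128 FPKM in the libraries labelled rrp6Δ, 94.2 and 68.1 FPKM in dis3-4 at 30 °C, and 95.4 and 43.2 FPKM in wild type. FPKM are fragments normalised for the length of a transcript and the size of a library. The rrp6 RNA was thus not low where the label names a deletion, and both libraries labelled rrp6Δ lay above both of dis3-4 at 30 °C, a log2 difference of 0.91 that was not called (SE 0.36, limma adjusted p = 0.19). Against wild type the rrp6 RNA was called higher in the libraries labelled rrp6Δ (log2 1.22, SE 0.36, limma adjusted p = 0.048, with 9.81% of all features called higher), which goes against the label. That call was lost without replicate 1 or 2 of rrp6Δ (adjusted p = 0.24 and 0.10) or replicate 2 of wild type (0.27), alternatives chosen after seeing the data. Which part of the gene the strain lacks is not stated in the labels, and directions below belong to the label. The dis3 gene (SPBC26H8.10, chromosome II), changed in dis3-4 by a mutation that need not alter its RNA level, had 43.8 and 42.2 FPKM in the libraries labelled rrp6Δ and 83.3 and 66.1 FPKM in dis3-4 at 30 °C. That difference of -0.77 was not called (SE 0.28, adjusted p = 0.15), but it was called after median-ratio scaling (-1.02, adjusted p = 0.016) and after quantile normalization (-1.04, adjusted p = 0.013). The gene the4, which overlaps dis3 on the opposite strand, was called lower, with 73.5 and 101 FPKM in the libraries labelled rrp6Δ and 347 and 297 FPKM in dis3-4 at 30 °C (log2 -1.89, adjusted p = 0.017). Its call was lost with each of the 4 libraries left out in turn (adjusted p = 0.062 to 0.14). Of the 13 exosome subunits and cofactors measured, 0 were called in either direction. With 3.98% of all features called, this count is no result about these genes.

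Few of the measured RNAs were called different. Of 6083 features that averaged 1 FPKM or more across the 14 polyA libraries, 242 (3.98%) were called at a limma adjusted p under 0.05, 179 (2.94%) higher and 63 (1.04%) lower in the libraries labelled rrp6Δ. At an unadjusted p under 0.05 there were 1221. Values were compared as log2(FPKM + 1), which understates differences of RNAs with low FPKM. The median of all features was itself 0.25 above zero, and scaling it away changed the balance of calls, from 74.0% higher as deposited to 56.0% higher of 277 calls with median-ratio factors and 50.5% higher of 311 calls with quantile normalization. The number called was 84, 83, 226 and 80 without replicate 1 of rrp6Δ, replicate 2 of rrp6Δ, replicate 1 of dis3-4 at 30 °C and replicate 2 of dis3-4 at 30 °C. With the 4 libraries fitted alone it was 31, of which 26 were higher and 5 lower.

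**Figure D1:**
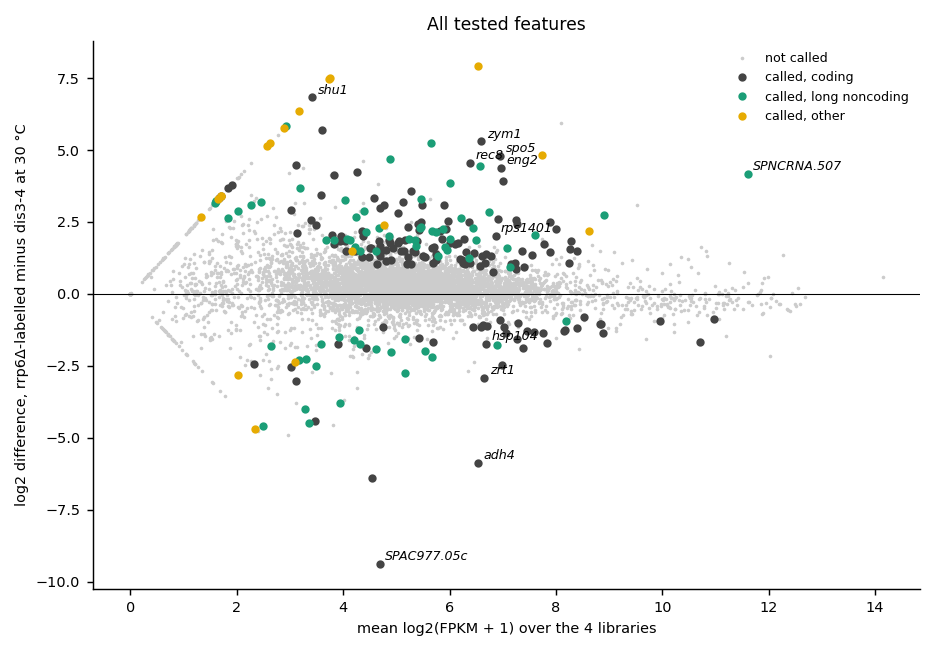
Each point is a tested feature: the x axis gives its mean log2(FPKM + 1) over the 4 libraries, and the y axis its log2 difference, libraries labelled rrp6Δ minus dis3-4 at 30 °C. Coloured points were called at a limma adjusted p under 0.05; 179 lie above zero and 63 below, with SPAC977.05c the lowest.

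Groups that did not overlap were far more common than calls: both libraries labelled rrp6Δ were above both of dis3-4 at 30 °C for 37.9% of features and below both for 13.4%. Against dis3-4 at 23 °C, which shares the libraries labelled rrp6Δ, 255 features (4.19%) were called, 192 (3.16%) higher and 63 (1.04%) lower. Of the RNAs called at 30 °C, both libraries labelled rrp6Δ were also above both of dis3-4 at 23 °C for 177 of the 179 higher (37.5% of all features). They were below both for 60 of the 63 lower (15.3%). These RNAs were selected by values of the shared libraries, so both shares follow in part from the selection.

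The plot of differences by level shows calls at every abundance, with mRNAs, long noncoding RNAs and small RNAs among them. Protein-coding genes gave 115 higher and 39 lower calls of 4548 (3.39% called), and long noncoding RNAs 49 higher and 21 lower of 1398 (5.01%). Both shares were near the 3.98% of all features. The snoRNAs gave 8 higher and 0 lower of 41 (19.5%). In 19 of the 179 higher calls both dis3-4 libraries were listed at 0, and in 2 of the 63 lower calls both libraries labelled rrp6Δ were. A listed 0 can be a failed estimate in these files, since the essential genes psm3, cct5 and rpt5 lay under 0.1 FPKM in 4, 4 and 3 of the 4 libraries, so such RNAs are given by their library values with no fold.

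Most RNAs called higher were above wild type in the libraries labelled rrp6Δ. Of the 179, 162 had both libraries labelled rrp6Δ above both wild type libraries, against 31.8% of the 6083 features tested, and 116 had them above all 12 other polyA libraries, against 7.99%. In dis3-4 at 30 °C, 37 of the 179 were above wild type in both libraries, near the 20.5% of all features, and 61 were below, against 19.5%. The 63 RNAs called lower divided differently: dis3-4 at 30 °C was above wild type in both libraries for 47 (20.5% of all features) and the libraries labelled rrp6Δ were below wild type for 40 (12.6%). In 19, all 4 dis3-4 libraries, at both temperatures, exceeded all 10 others (0.674%). Wild type varied more between its replicates than the other groups (mean square 0.663, against 0.166 to 0.334), so these positions are given without a test. The called RNAs were selected by values of the same libraries, so shares above those of all features follow in part from the selection.

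Meiotic mRNAs of the Mmi1 list were among the groups called higher. Of 10 measured members of the 12 listed, 7 were higher in the libraries labelled rrp6Δ (background 2.94%) and 0 lower, with a median log2 difference of 2.46 against 0.25 for all features. The count was 5 without either library labelled rrp6Δ or without replicate 2 of dis3-4 at 30 °C, and 6 without replicate 1. The other listed genes, num1 and jnm1, were at 0 in every library. The hexamer TTAAAC, written as DNA and searched on the sense strand of the annotated transcripts, occurred at least 3 times in 9 of the 10 (90.0%), in 7.13% of all tested mRNAs, in 9.26% of the 108 mRNAs called higher outside the list and in 5.13% of the 39 called lower. At least 1 occurred in 47.2% of those 108, near the 49.6% of all tested mRNAs. The list was drawn up for Mmi1, which recognises this hexamer, so the share in the list is no independent result. Stretches of 30 bases of coding sequence are shown for 5 members to compare the same hexamer, in capitals, in mRNAs with large, small and uncalled differences. They are read 5′ to 3′ from the RefSeq gene models of build ASM294v3, at bases 1199 to 1228 of spo5, 1162 to 1191 of rec8, 892 to 921 of mug10, 281 to 310 of ssm4 and 720 to 749 of mei4, counted from the start codon.
spo5: tttccacattgtTTAAACccagcaaaatca
rec8: ggtgaattaggtTTAAACataccttggaat
mug10: aaggggaagcttTTAAACcgtcatttggca
ssm4: aaactaaagcaaTTAAACaaaaatcacgta
mei4: tagtTTAAACtcaaatattgTTAAACcccc

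The largest difference of the list was that of spo5 (SPBC29A10.02 on chromosome II), which encodes a meiotic RNA-binding protein. It had 687 and 626 FPKM in the libraries labelled rrp6Δ, 19.3 and 26.3 FPKM in dis3-4 at 30 °C, and 3.97 and 0.981 FPKM in wild type. The groups did not overlap, and the log2 difference was 4.80 (SE 0.40, limma adjusted p = 5.7e-05), called with any 1 of the 4 libraries left out. The gene pcf1 overlaps spo5 on the opposite strand, and ubp8 overlaps mcp7 likewise. The meiotic cohesin subunit rec8 (SPBC29A10.14) had 465 and 351 FPKM in the libraries labelled rrp6Δ and 16.6 and 16.0 FPKM in dis3-4 at 30 °C, a log2 difference of 4.55 (SE 0.67, adjusted p = 0.0030). The recombination protein mcp7 had 532 and 476 FPKM in the libraries labelled rrp6Δ and 29.8 and 34.5 FPKM in dis3-4 at 30 °C, a log2 difference of 3.93 (SE 0.50, adjusted p = 0.0013). In dis3-4 at 30 °C these were also above wild type, by log2 differences of 2.91 for spo5 (limma adjusted p = 0.00087), 2.71 for rec8 (0.029) and 2.21 for mcp7 (0.018). Over all features, 6.38% were called higher than wild type there. Wild type had 5.98 and 0 FPKM of rec8 and 13.0 and 2.66 FPKM of mcp7. Without replicate 1 of wild type the differences were 4.11 for rec8 and 3.17 for mcp7. Without replicate 2 of wild type they were 1.31 and 1.24. The calls of rec8 and mcp7 were lost without either dis3-4 library or replicate 2 of wild type.

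Smaller differences were found in mug10, mug8, mug9 and ssm4. The gene mug10, named for its rise in meiosis, had 308 and 284 FPKM in the libraries labelled rrp6Δ and 50.5 and 45.0 FPKM in dis3-4 at 30 °C (log2 2.61, SE 0.29, adjusted p = 0.00045). The microtubule-associated meiotic gene ssm4 had 107 and 77.9 FPKM in the libraries labelled rrp6Δ, against 28.9 and 28.7 FPKM in dis3-4 at 30 °C (log2 1.63). The differences of mug8 and mug9 were 2.42 and 1.78. The other members were not called. The transcription factor of middle meiosis mei4, whose coding sequence shown above holds the hexamer at both marked places, had 218 and 209 FPKM in the libraries labelled rrp6Δ, 113 and 100 FPKM in dis3-4 at 30 °C and 6.18 and 1.80 FPKM in wild type. Both groups were thus above wild type for mei4, and their difference of 1.00 was not called (SE 0.43, adjusted p = 0.22). The meiotic cyclin crs1 missed the threshold with a difference of 2.50 (adjusted p = 0.060), and mcp3, with 1.37 and 1.91 FPKM in the libraries labelled rrp6Δ and 4.51 and 3.93 FPKM in dis3-4 at 30 °C, had the only negative value of the list (-0.99, adjusted p = 0.36).

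The libraries labelled rrp6Δ and those of dis3-4 at 30 °C stood above both of wild type for all 10 measured members, against 31.8% and 20.5% of all features, and the double mutant at 30 °C did too (35.3%). In 9 of the 10, both libraries labelled rrp6Δ were above all 12 other polyA libraries (7.99% of all features), rrp6-cat included. The spo5 values of 14.6 and 15.3 FPKM in rrp6-cat and 13.6 and 18.4 FPKM in the double mutant at 30 °C lay below those of dis3-4 at 30 °C. In bulk RNA, more RNA per cell and more cells that hold it cannot be told apart.

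**Figure D2:**
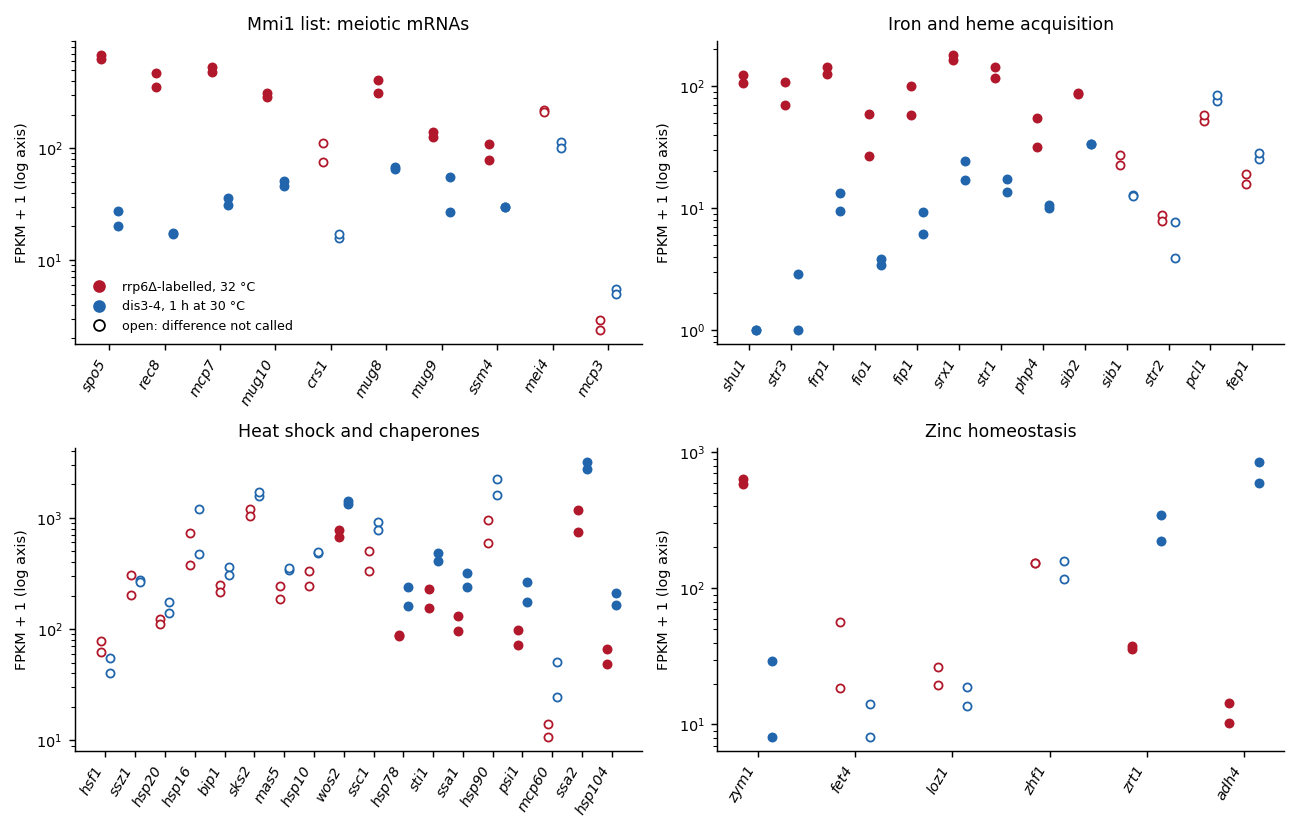
FPKM + 1 on a log axis for each measured member of 4 gene lists, with a point for each library: red for the libraries labelled rrp6Δ and blue for dis3-4 after 1 h at 30 °C, filled where the difference was called and open where it was not. The red points are above the blue ones for 9 of 10 Mmi1 list members and below them for 15 of 18 heat shock and chaperone genes, and zym1, zrt1 and adh4 differ in opposite directions within the zinc list.

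Genes that act later in meiosis were higher in part. Of the middle meiosis and sporulation list 10 of 18 genes were measured and 4 were higher (background 2.94%). These were the glucanase eng2, the spore envelope protease-like gene mde10, the meiotic septin spn5 and the ascus wall glucanase agn2. The count fell to 1 without replicate 1 of rrp6Δ, and was 2 without replicate 2 of either group and 3 without replicate 1 of dis3-4 at 30 °C. The eng2 mRNA (SPAC23D3.10c) had 638 and 511 FPKM in the libraries labelled rrp6Δ, 25.6 and 27.4 FPKM in dis3-4 at 30 °C and 29.6 and 19.3 FPKM in wild type. Its difference of 4.38 (SE 0.28, limma adjusted p = 4.9e-06) was called with any 1 library left out, and dis3-4 lay within the range of wild type. The mde10 mRNA had 115 and 109 FPKM in the libraries labelled rrp6Δ and 24.3 and 34.3 FPKM in dis3-4 at 30 °C (log2 1.92, adjusted p = 0.0053, and 0.059 without replicate 1 of rrp6Δ).

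Recombination and entry into meiosis showed fewer differences. Over all features, 2.94% were called higher. In meiotic recombination, 2 of 10 measured genes were higher, meu13, a pairing and recombination factor, and rec10, a linear element protein; 0 were called without replicate 1 of rrp6Δ or without replicate 2 of dis3-4 at 30 °C, 2 without replicate 2 of rrp6Δ and 3 without replicate 1 of dis3-4 at 30 °C. The meu13 mRNA had 93.8 and 65.03 FPKM in the libraries labelled rrp6Δ and 12.2 and 5.54 FPKM in dis3-4 at 30 °C. Of 16 measured genes of mating and meiotic entry 2 were higher, the pheromone gene mfm1 and the transcription factor rep1, and 0 were with any 1 of the 4 libraries left out. The mfm1 gene had 10.0 and 8.16 FPKM in the libraries labelled rrp6Δ and was listed at 0 in both of dis3-4 at 30 °C. Regulators that start the meiotic programme were not called: ste11 had 19.2 and 19.9 FPKM in the libraries labelled rrp6Δ and 13.6 and 11.0 FPKM in dis3-4 at 30 °C (adjusted p = 0.48), and mei2 had 13.1 and 14.0 against 3.28 and 4.03 FPKM (adjusted p = 0.10).

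Genes of iron and heme acquisition were the other large group. These genes are repressed when iron is ample by the factor Fep1, and Php4 represses iron-using genes when iron is scarce. The list, like the others, was chosen with earlier results of these data known. Of 13 measured genes 9 were higher in the libraries labelled rrp6Δ (background 2.94%) and 0 lower (1.04%). The median log2 difference was 3.07, against 0.25 for all features. The count was 7 without replicate 1 of dis3-4 at 30 °C and 6 without any other of the 4 libraries. Among uptake genes, the cell-surface heme receptor gene shu1 (SPAC1F8.02c, chromosome I) had 104 and 122 FPKM in the libraries labelled rrp6Δ, was listed at 0 in both libraries of dis3-4 at 30 °C and of wild type, and had 30.4 and 22.5 FPKM in the double mutant at 30 °C. The heme transporter gene str3 had 107 and 69.4 FPKM in the libraries labelled rrp6Δ and 1.89 and 0 FPKM in dis3-4 at 30 °C (log2 5.68, SE 0.67, limma adjusted p = 0.00078). The ferric reductase frp1 had 125 and 143 FPKM in the libraries labelled rrp6Δ, 12.3 and 8.43 FPKM in dis3-4 at 30 °C and 9.98 and 2.73 FPKM in wild type (log2 3.59, SE 0.44, adjusted p = 0.0010). These genes held their calls with any 1 of the 4 libraries left out, and dis3-4 at 30 °C did not lie above wild type in both libraries.

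The multicopper oxidase fio1, with 58.1 and 25.9 FPKM in the libraries labelled rrp6Δ and 2.84 and 2.45 FPKM in dis3-4 at 30 °C, and its partner, the iron permease fip1, with 99.1 and 56.6 against 8.24 and 5.08 FPKM, were higher together (log2 3.45 and 3.34). The siderophore transporter str1 (3.07) and the siderophore synthesis gene sib2 (1.38) were higher too. Members of the list that do not take up iron were also among the calls: srx1, a sulfiredoxin that repairs oxidised peroxiredoxin, had 163 and 180 FPKM in the libraries labelled rrp6Δ and 23.4 and 16.1 FPKM in dis3-4 at 30 °C (3.08), and php4 differed by 2.01. The remaining members, str2, sib1, pcl1 and fep1, were not called, and the repressor gene fep1 had 18.1 and 14.7 FPKM in the libraries labelled rrp6Δ and 24.0 and 27.2 FPKM in dis3-4 at 30 °C (adjusted p = 0.30). In 9 of the 13 genes both libraries labelled rrp6Δ exceeded all 12 others (7.99% of all features). In dis3-4 at 30 °C, 2 of 13 exceeded wild type in both libraries, near the 20.5% of all features.

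**Figure D3:**
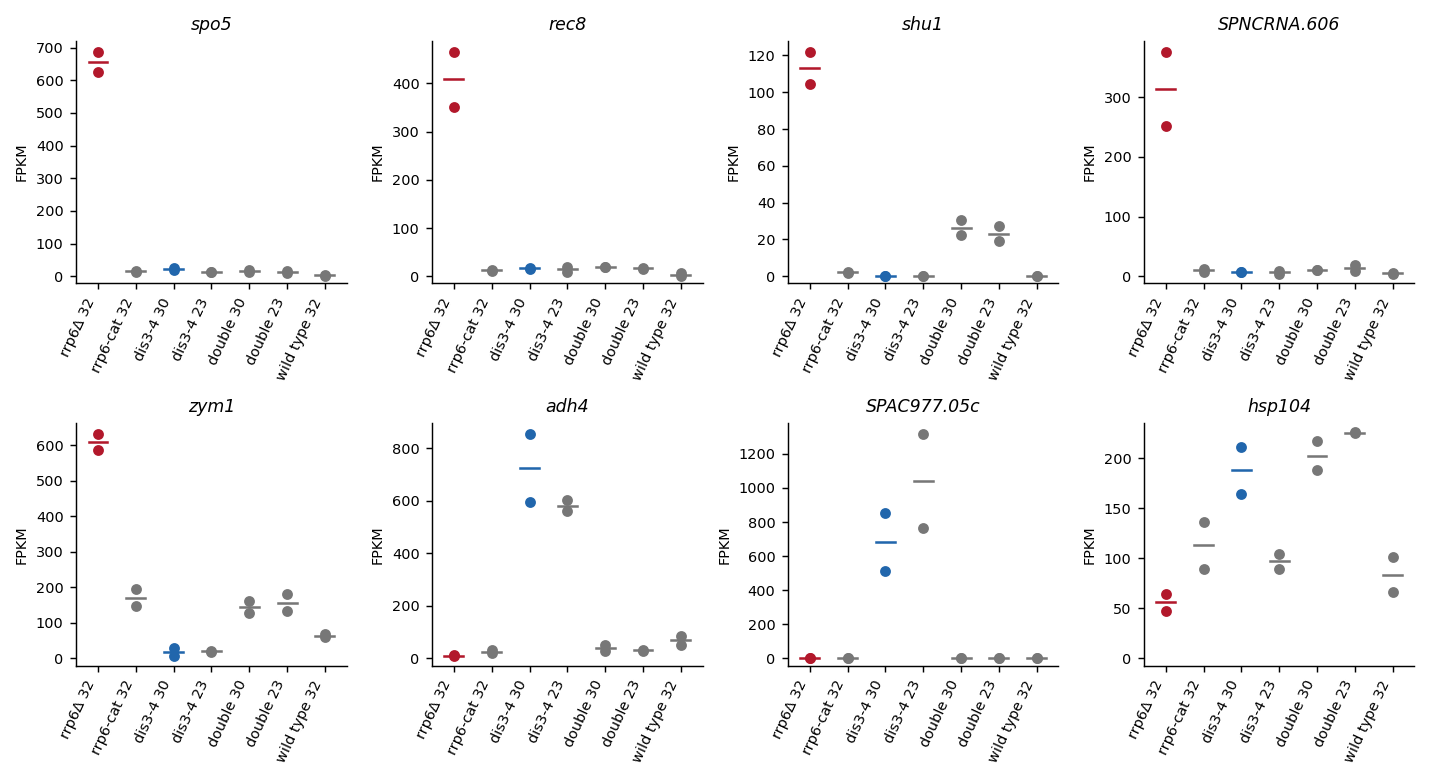
FPKM of 8 RNAs in the 7 polyA groups, with a point for each library and a bar for the mean of 2; numbers after the genotype are degrees Celsius, red marks the libraries labelled rrp6Δ and blue dis3-4 at 30 °C. The RNAs spo5, rec8, shu1, SPNCRNA.606 and zym1 are highest in the libraries labelled rrp6Δ, and adh4 and SPAC977.05c are high in dis3-4 at both temperatures.

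Zinc genes separated the groups in both directions. In fission yeast the repressor Loz1 holds the alcohol dehydrogenase gene adh4 and the zinc transporter gene zrt1 low when zinc is ample, while the metallothionein zym1 binds zinc. The adh4 mRNA (SPAC5H10.06c, chromosome I) had 13.5 and 9.18 FPKM in the libraries labelled rrp6Δ, 594 and 854 FPKM in dis3-4 at 30 °C and 50.5 and 87.2 FPKM in wild type, a log2 difference of -5.88 (SE 0.36, limma adjusted p = 4.9e-06). The zrt1 mRNA (SPBC16D10.06, chromosome II), which sir2 and SPNCRNA.1622 overlap on the opposite strand, had 34.7 and 36.8 FPKM in the libraries labelled rrp6Δ, 221 and 345 FPKM in dis3-4 at 30 °C and 28.0 and 48.5 FPKM in wild type (-2.92, SE 0.30, adjusted p = 0.00031). For zym1 (SPAC22H10.13, chromosome I) the order was the opposite, with 588 and 632 FPKM in the libraries labelled rrp6Δ, 28.4 and 7.06 FPKM in dis3-4 at 30 °C and 68.1 and 61.0 FPKM in wild type (5.31, SE 0.45, adjusted p = 6.1e-05). All of these were called with any 1 of the 4 libraries left out. The groups were wide apart, and for zym1 wild type lay between them.

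Strain JT449 showed the same zinc pattern without the shift to 30 °C. At 23 °C dis3-4 had 603 and 560 FPKM of adh4, 311 and 280 FPKM of zrt1, and 22.2 and 19.7 FPKM of zym1. The double mutant at 30 °C, which carries a dis3-4 allele in strain JLP1863, had 29.4 and 51.5 FPKM of adh4, 38.2 and 41.2 FPKM of zrt1, and 129 and 162 FPKM of zym1. It was thus not high for adh4 and zrt1, and for zym1 it lay above wild type, where dis3-4 lay below. The other measured zinc genes were not called: the zinc exporter zhf1 had 154 and 153 FPKM in the libraries labelled rrp6Δ and 158 and 116 FPKM in dis3-4 at 30 °C (adjusted p = 0.76), and the repressor loz1 had 25.3 and 18.4 FPKM against 18.0 and 12.6 FPKM (adjusted p = 0.46).

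Some heat shock and chaperone genes were lower in the libraries labelled rrp6Δ. Of 18 measured genes 7 were lower (background 1.04%) and 0 higher: hsp104, ssa1, ssa2, psi1, sti1, hsp78 and wos2. The median log2 difference was -0.99, and it was -1.24 with 11 lower after median-ratio scaling and -0.97 with 10 lower after quantile normalization. The count rests on single libraries: it was 1 without replicate 2 of rrp6Δ and 2 without any other of the 4 libraries. The disaggregase hsp104 (SPBC16D10.08c) had 47.7 and 64.6 FPKM in the libraries labelled rrp6Δ, 212 and 165 FPKM in dis3-4 at 30 °C and 101 and 66.3 FPKM in wild type (log2 -1.73, SE 0.28, limma adjusted p = 0.0052, and 0.064 without replicate 1 of rrp6Δ). The Hsp70 gene ssa2 overlaps ppe1 on the same strand. It had 1165 and 747 FPKM in the libraries labelled rrp6Δ and 3198 and 2759 FPKM in dis3-4 at 30 °C (-1.67, adjusted p = 0.022). Its call was lost without any 1 library other than replicate 1 of rrp6Δ (adjusted p = 0.074 to 0.16).

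The dis3-4 libraries at 23 °C give the values of the same strain without the 1 h at 30 °C. In 14 of the 18 genes both dis3-4 libraries at 30 °C exceeded both at 23 °C (14.1% of all features), and the median log2 difference between these temperatures was 0.85, with 0 called. The libraries labelled rrp6Δ were below dis3-4 at 30 °C in both libraries for 15 of 18 genes (13.4% of all features) and below dis3-4 at 23 °C for 9 of 18 (15.3%). Against dis3-4 at 23 °C, 0 of the 18 were called lower. With 1.04% of all features called lower there, this count is no result about these genes. For hsp104, dis3-4 at 23 °C had 104 and 90.0 FPKM, and for ssa2 it had 1799 and 1508 FPKM, between the compared groups. The part of temperature in the difference was not tested, and the libraries labelled rrp6Δ were grown at 32 °C. Over all features, dis3-4 at 30 °C minus 23 °C gave 0 limma calls of 6083 (0%), with 273 at an unadjusted p under 0.05. Among core stress genes 2 of 16 were higher (background 2.94%), the glycerol-3-phosphate dehydrogenase gpd1 and the glutathione transferase gst2. The gpd1 gene overlaps SPNCRNA.1657 on the same strand. Its mRNA had 383 and 398 FPKM in the libraries labelled rrp6Δ and 175 and 114 FPKM in dis3-4 at 30 °C (limma adjusted p = 0.0029). The count was 3 without replicate 1 of rrp6Δ and 1 without replicate 2 of either group. For gst2 the adjusted p was 0.028, but 0.080 after median-ratio scaling, and the call was kept only without replicate 1 of rrp6Δ (0.040, otherwise 0.058 to 0.19).

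**Figure D4:**
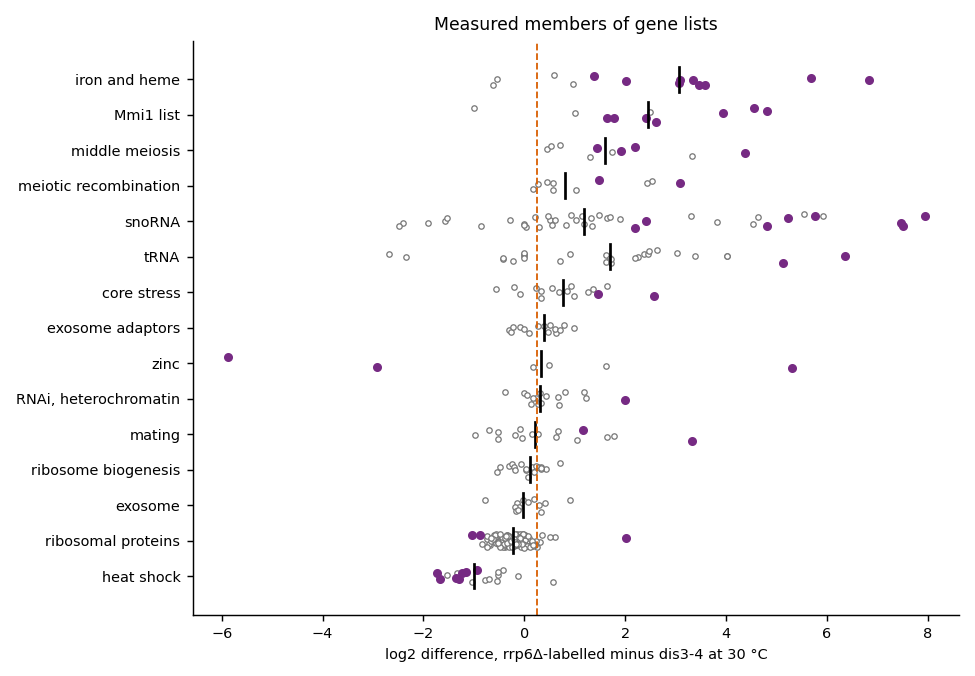
The x axis gives the log2 difference, libraries labelled rrp6Δ minus dis3-4 at 30 °C, for each measured member of 15 gene lists or RNA classes; filled points were called, black bars are list medians and the dashed line is the median of all features, 0.25. Iron and heme genes (median 3.07) and the Mmi1 list (2.46) lie farthest to the right, and heat shock genes (-0.99) farthest to the left.

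The other lists gave few calls, and with 3.98% of all features called a count of 0 in lists of this size is no result about their members. With 0 calls in either direction were the lists of exosome subunits (13 measured), exosome adaptors (15), cytoplasmic decay factors (15), ribosome biogenesis (20), histones (8), phosphate (7), glucose-repressed genes (10) and auxotrophic marker and mating-type genes (8). Of 16 genes of RNA interference and heterochromatin, clr4, the histone H3 lysine methyltransferase, was higher, with 38.9 and 23.3 FPKM in the libraries labelled rrp6Δ and 11.2 and 3.96 FPKM in dis3-4 at 30 °C (limma adjusted p = 0.030). It overlaps meu6 on the opposite strand, and its call was kept only without replicate 1 of dis3-4 at 30 °C (0.010, otherwise 0.074 to 0.23). Of 12 genes of nitrogen starvation the amino acid transporter aat1 was lower (adjusted p = 0.039), and this too was kept only without replicate 1 of dis3-4 at 30 °C. Ribosomal protein genes gave 1 higher and 2 lower calls of 123. The rps1401 mRNA had 218 and 250 FPKM in the libraries labelled rrp6Δ and 64.0 and 50.8 FPKM in dis3-4 at 30 °C (log2 2.02, adjusted p = 0.0013). Wild type had 232 and 204 FPKM, so of the compared groups dis3-4 was the one away from wild type. The rrp6-cat libraries were low too, with 75.2 and 95.1 FPKM, and dis3-4 at 23 °C had 132 and 189 FPKM. The rpl802 and rpl22 mRNAs were lower by -1.05 and -0.88, and their calls were lost without at least 3 of the 4 libraries in turn.

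Small nucleolar RNAs guide the modification and cutting of ribosomal RNA, and their polyadenylated forms are exosome substrates. Of 41 measured snoRNAs 8 were higher (background 2.94%) and 0 lower (1.04%), with a median log2 difference of 1.19. The count was 2 without replicate 1 of rrp6Δ or replicate 2 of dis3-4 at 30 °C, 3 without replicate 1 of dis3-4 at 30 °C and 4 without replicate 2 of rrp6Δ. The libraries labelled rrp6Δ exceeded wild type for 33 of the 41 (31.8% of all features) and dis3-4 at 30 °C for 24 (20.5%), with 22 shared. The snR88 RNA (SPSNORNA.53, chromosome I) had 585 and 56.0 FPKM in the libraries labelled rrp6Δ and was listed at 0 in both dis3-4 libraries at 30 °C and both of wild type. The snoR69 RNA had 541 and 56.7 FPKM in the libraries labelled rrp6Δ, was listed at 0 in dis3-4 at 30 °C, and had 12.4 and 20.2 FPKM in dis3-4 at 23 °C. In contrast to these, snR94 had 845 and 851 FPKM in the libraries labelled rrp6Δ, 157 and 215 FPKM in dis3-4 at 30 °C and 40.9 and 37.1 FPKM in wild type, so both groups were above wild type (log2 2.2, limma adjusted p = 0.016).

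Several snoRNAs differed widely between the libraries labelled rrp6Δ. The snoU14 RNA had 5031 and 252 FPKM in replicates 1 and 2, against 47.2 and 32.2 FPKM in dis3-4 at 30 °C, and snoR39b had 5173 and 402 against 33.9 and 0 FPKM. Replicate 1 was above replicate 2 in 6 of the 8 called snoRNAs, in 29 of 41 measured (70.7%) and in 4154 of all 6083 features (68.3%). The snoR39b gene lies within rpl701 and snoR54 within gua1, on the same strand, so reads of the host can count for them. Among other small RNAs the calls were few: 2 of 29 tRNAs, 1 of 5 snRNAs and 1 of 17 rRNA features were higher, all listed at 0 in dis3-4 at 30 °C. Beside the 2.94% of all features called higher, counts this small are no result about these classes. With 1 of the 4 libraries left out the counts were 0 to 4 tRNAs, 0 to 1 snRNA and 0 to 2 rRNA features. The rRNA feature SPRRNA.33 has 32 near-identical copies and the tRNA SPATRNALEU.02 has 1, so their levels are uncertain. Small RNAs are shorter than most fragments, and how the counting treated them is not stated in the labels.

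Long noncoding RNAs gave 49 higher and 21 lower calls of 1398. The share called, 5.01%, was near the 3.98% of all features. The counts were 45 and 43 after median-ratio scaling and 40 and 60 after quantile normalization. The higher count was 15 and 20 without replicates 1 and 2 of rrp6Δ, and 37 and 19 without replicates 1 and 2 of dis3-4 at 30 °C. The lower count was 16 and 9, and 14 and 8, in the same order. SPNCRNA.606, which overlaps the spore wall gene isp3 on the opposite strand, had 253 and 376 FPKM in the libraries labelled rrp6Δ, 7.73 and 6.60 FPKM in dis3-4 at 30 °C and 4.54 and 5.70 FPKM in wild type (log2 5.25, SE 0.43, limma adjusted p = 5.7e-05). The isp3 mRNA itself had 11.2 and 20.9 FPKM in the libraries labelled rrp6Δ and 1.66 and 2.37e-06 FPKM in dis3-4 at 30 °C, and was not called (adjusted p = 0.058). SPNCRNA.118 had 113 and 28.0 FPKM in the libraries labelled rrp6Δ and was listed at 0 in each of the 12 other libraries. The most abundant RNA called was SPNCRNA.507, with 26190 and 6658 FPKM in the libraries labelled rrp6Δ, 687 and 782 FPKM in dis3-4 at 30 °C and 397 and 337 FPKM in wild type (log2 4.17, adjusted p = 0.0016). It was named after its values were seen.

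Of the 21 long noncoding RNAs called lower, 15 had all 4 dis3-4 libraries, at both temperatures, above both of wild type, against 29.4% of the 1398 tested. The 21 were selected in part by the values of dis3-4 at 30 °C, so part of this excess follows from the selection. SPNCRNA.256 had 0.293 and 0.000207 FPKM in the libraries labelled rrp6Δ and 17.4 and 40.7 FPKM in dis3-4 at 30 °C (log2 -4.61, limma adjusted p = 0.00095). It had 4.35 and 7.39 FPKM in dis3-4 at 23 °C and 8.08 and 19.1 FPKM in rrp6-cat. SPNCRNA.284 had 3.74 and 0 FPKM in the libraries labelled rrp6Δ and 38.7 and 57.7 FPKM in dis3-4 at 30 °C, with 46.8 and 26.8 FPKM in dis3-4 at 23 °C (-4.47, adjusted p = 0.0014). SPNCRNA.601 had 4.92 and 0 FPKM in the libraries labelled rrp6Δ and 24.7 and 57.0 FPKM in dis3-4 at 30 °C, with 48.3 and 33.3 FPKM in dis3-4 at 23 °C (-3.99, adjusted p = 0.016), not called without replicate 2 of rrp6Δ (0.12) or replicate 2 of dis3-4 at 30 °C (0.15). Both SPNCRNA.284 and SPNCRNA.601 were high in dis3-4 at both temperatures. SPNCRNA.774 had 4.56 and 2.04 FPKM in the libraries labelled rrp6Δ and 53.3 and 58.7 FPKM in dis3-4 at 30 °C, but 6.72 and 13.1 FPKM in dis3-4 at 23 °C (-3.79, adjusted p = 0.0016). SPNCRNA.1306 had 13.0 and 12.6 FPKM in the libraries labelled rrp6Δ and 83.9 and 102 FPKM in dis3-4 at 30 °C, with 126 and 80.8 FPKM in dis3-4 at 23 °C (-2.76, adjusted p = 0.0013). SPNCRNA.774 and SPNCRNA.256 were thus lower in dis3-4 at 23 °C than at 30 °C, and rrp6-cat had 42.3 and 22.3 FPKM of SPNCRNA.774. Of the 6 named by rule, 5 had all 4 dis3-4 libraries above both of wild type, SPNCRNA.256 and SPNCRNA.448 among them. SPNCRNA.774 did not.

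The largest difference of all was that of SPAC977.05c (chromosome I), whose product carries a Vel1p domain. It was listed at 0 in both libraries labelled rrp6Δ and both of wild type, and had 516 and 854 FPKM in dis3-4 at 30 °C and 1316 and 766 FPKM in dis3-4 at 23 °C. The double mutant at 30 °C, with 1.63 and 1.32 FPKM, was close to 0. The reference holds 2 other near-identical copies of this gene, so reads may be divided among them. SPCC13B11.02c had 2.47e-09 and 5.43 FPKM in the libraries labelled rrp6Δ and 321 and 142 FPKM in dis3-4 at 30 °C (limma adjusted p = 0.0084), with an adjusted p of 0.094 without replicate 1 of rrp6Δ and 0.052 without replicate 1 of dis3-4 at 30 °C. A feature the reference does not annotate, SPMTR.01, was listed at 0 in both libraries labelled rrp6Δ and had 19.8 and 31.6 FPKM in dis3-4 at 30 °C. It was above 0 in all 8 libraries of dis3-4 and of the double mutant and at 0 in the 6 of rrp6Δ, rrp6-cat and wild type, so strain and exosome genotype cannot be told apart for it. The mating-type gene mat1-Mc had 42.4 and 16.2 FPKM in the libraries labelled rrp6Δ and 4.56 and 9.35 FPKM in dis3-4 at 30 °C, a difference that was not called (adjusted p = 0.40).

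Further mRNAs with large differences belonged to no list. SPAC750.01, which encodes an aldo/keto reductase family protein, had 82.6 and 81.9 FPKM in the libraries labelled rrp6Δ, 6.27 and 1.71 FPKM in dis3-4 at 30 °C and 0.906 and 0 FPKM in wild type (log2 4.23, SE 0.46, limma adjusted p = 0.00045). The mug108 mRNA, which rga3 overlaps on the opposite strand and SPAC29A4.22 on the same strand, had 46.7 and 72.7 FPKM in the libraries labelled rrp6Δ, 2.07 and 2.73 FPKM in dis3-4 at 30 °C and 23.2 and 30.4 FPKM in wild type (4.13, adjusted p = 0.00010). The groups thus lay on opposite sides of wild type for mug108. Against wild type the difference was called for dis3-4 at 30 °C (-3.03, limma adjusted p = 0.00038). It was not called for the libraries labelled rrp6Δ (1.11, adjusted p = 0.080), and dis3-4 at 23 °C had 14.7 and 18.4 FPKM. The meiotic recombination gene rmr1, which mme1 overlaps on the opposite strand, was lower, with 77.5 and 36.0 FPKM in the libraries labelled rrp6Δ, 414 and 213 FPKM in dis3-4 at 30 °C and 38.8 and 36.3 FPKM in wild type (-2.47, adjusted p = 0.0046, and 0.056 without replicate 2 of rrp6Δ). Of the 64 called RNAs named by rule, 27 kept their call with each of the 4 libraries left out in turn, 5 lost it in 1 case and 32 in at least 2, and the direction of 0 changed.

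A second pair of groups, in libraries that the comparison above does not hold, was rrp6-cat against dis3-4 at 23 °C. It shares strain JT449 but no library, and here too genotype and temperature differ together. Of 6083 features 71 (1.17%) were called, 41 (0.674%) higher and 30 (0.493%) lower in rrp6-cat. Of the 179 RNAs higher in the libraries labelled rrp6Δ, 142 (79.3%) had a positive difference in these libraries, against 63.8% of all features, with a median of 0.58 against 0.15. Of the 63 lower, 13 (20.6%) were positive and the median was -1.01. Called in the same direction in both were 10 higher, which are 5.59% of 179 and 24.4% of 41, and 20 lower, which are 31.7% of 63 and 66.7% of 30; 0 were called in opposite directions. The calls of this second comparison fell to between 9 and 43 with 1 of its libraries left out.

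**Figure D5:**
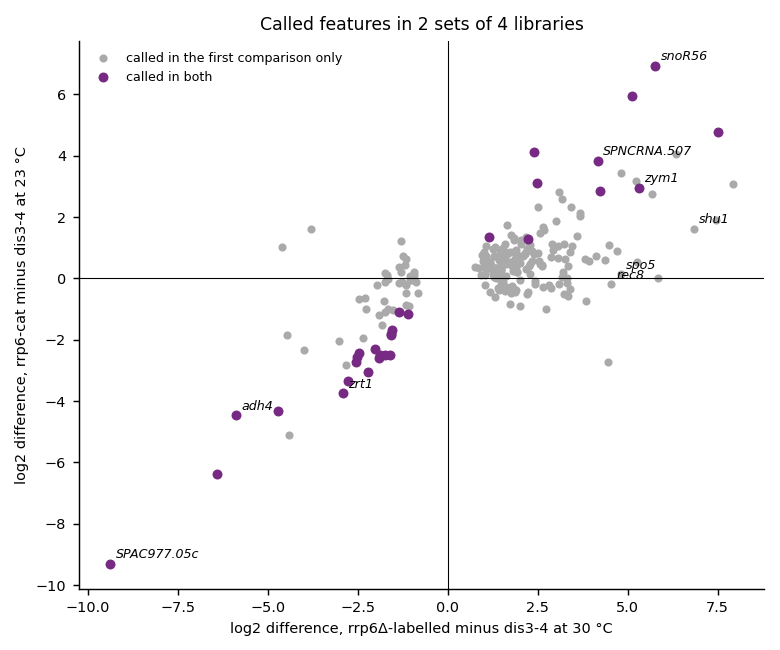
Each point is an RNA called between the libraries labelled rrp6Δ and dis3-4 at 30 °C; the x axis gives that log2 difference and the y axis the log2 difference, rrp6-cat minus dis3-4 at 23 °C, in 4 other libraries. Purple points were called in both, 10 on the upper right and 20 on the lower left; spo5 and rec8 lie near zero on the y axis.

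Among the RNAs called in both comparisons, the zinc genes were prominent. In rrp6-cat, adh4 had 20.3 and 31.4 FPKM, against 603 and 560 FPKM in dis3-4 at 23 °C (log2 -4.47, limma adjusted p = 8.8e-05). The zym1 mRNA had 148 and 195 FPKM in rrp6-cat, against 22.2 and 19.7 FPKM in dis3-4 at 23 °C (2.96, adjusted p = 0.0078), and zrt1 differed by -3.74. SPNCRNA.507 had 12737 and 11985 FPKM in rrp6-cat, against 1097 and 679 FPKM in dis3-4 at 23 °C (3.84, adjusted p = 0.0064). Also called higher in both were the U3 gene snu3, snR88, snoR56, SPATRNALEU.02, SPAC750.01, SPAC27D7.09c, SPNCRNA.1153 and oca2. Lower in both were SPAC977.05c, SPCC13B11.02c, SPMTR.01, SPNCRNA.1306, the4, the polyubiquitin gene ubi4, the malic enzyme gene mae2 and others.

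The meiotic and iron genes were not among them. With 1.17% of all features called, a count of 0 in lists of this size is no result about their members. In the Mmi1 list 0 of 10 were called between rrp6-cat and dis3-4 at 23 °C and the median difference was -0.06: spo5 had 14.6 and 15.3 FPKM in rrp6-cat and 13.5 and 13.5 FPKM in dis3-4 at 23 °C (0.14, limma adjusted p = 0.95). In the iron and heme list 0 of 13 were called, with a median of 0.67, and shu1 had 1.71 and 2.51 FPKM in rrp6-cat and was listed at 0 in dis3-4 at 23 °C. Heat shock genes gave 1 higher call (0.674% of all features) and a median of 0.27. Whether the differences of these lists differ between the comparisons was not tested.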

How the data were processed

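Genome build ASM294v2 and the tools Bowtie2, TopHat2 2.1.0, Cuffdiff, Cuffnorm and Cufflinks 2.2.1 are named in the submitters' processing notes. For each of 14 polyA libraries the authors deposited FPKM per feature, from Cuffnorm according to those notes. No source used here states the annotation, the library scaling, the use of strand in counting or the numbers of reads, so the depth is unknown. The FPKM of the compared libraries summed to 822751 and 725476 (rrp6Δ) and 716873 and 741912 (dis3-4 at 30 °C). Combined-replicate FPKM and the 3′-ligated coverage were not used here.

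Of 7027 features, 6854 matched the reference of build ASM294v3 by systematic ID, 4423 with a symbol. The reference served for names, chromosomes, classes, overlaps, copies (at least 95% identity over 50% of the length) and transcript sequence. FPKM had 1 added before log2, and 6083 features with a mean of at least 1 FPKM were tested. Group means of all 14 libraries (7 groups) were fitted with trend and empirical Bayes moderation in limma 3.58.1 (R 4.3.3), two-sided, with Benjamini-Hochberg adjustment and a threshold of 0.05. The fit was tested on simulated data. Named by rule were rrp6 and dis3, the 12 coding and 8 noncoding features with the largest difference in each direction among called, non-overlapping features with at least 5 FPKM in the higher group, and up to 4 called members of each list. The members and the 18 gene lists were chosen with earlier results of these data known. Other pseudocounts, filters, scalings, sets of libraries and left-out libraries were tried as alternatives.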

Additional observations from a re-analysis of the deposited data

How the results depend on the processing

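The direction of the 66 named RNAs was kept under every alternative run; their calls depended on the setting. Between the libraries labelled rrp6Δ and dis3-4 at 30 °C, 242 features were called (179 higher, 63 lower). The count was 510 without the wild type libraries (390 and 120) and 31 with the 4 libraries alone (26 and 5). Median-ratio factors gave 122 lower and quantile normalization 154. With 1 library left out it was 80 to 226 (52 to 195 higher, 22 to 32 lower). For rrp6-cat minus dis3-4 at 23 °C the 71 calls became 216 without wild type (148 and 68) and 10 with the 4 libraries alone (4 and 6), with 66 higher under median-ratio factors and 64 under quantile normalization, and 9 to 43 with 1 library left out (1 to 19 higher, 7 to 31 lower). For rrp6Δ minus dis3-4 at 23 °C, which shares libraries with the comparison above, the 255 calls became 486 without wild type (373 and 113) and 100 with the 4 libraries alone (80 and 20), with 103 lower under median-ratio factors and 143 under quantile normalization, and 71 to 129 with 1 library left out (51 to 103 higher, 20 to 34 lower). For dis3-4 at 30 °C minus 23 °C the 0 calls became 4, all higher, with median-ratio factors or without wild type, 1 higher with no filter, and 0 to 1 with 1 library left out. The causes were not tested. Fitting replicate number as a block gave 369 calls for the comparison reported here (285 higher, 84 lower) and 122 for rrp6-cat minus dis3-4 at 23 °C (87 higher). The deviations of same-numbered libraries correlated between -0.154 and 0.315, at 0.0209 for rrp6Δ with dis3-4 at 30 °C and at 0.191, 0.271 and 0.315 among the groups grown at 32 °C. Since not every correlation was above 0.1, the numbers were not taken as pairs. Read totals are unknown and each group has 2 libraries, which limits every count.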
